A study of Mus musculus with 10 samples.

Results

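Crypt stem cell genes were followed in intestinal epithelial cells (IECs) of RhoB-/- mice as the 10 rows of the gene table named Lgr5, Ascl2, Smoc2, Axin2, Cdca7, Rgmb, Slc12a2, Ephb2, Ephb3 and Sox9, out of 55487 genes. All 10 had a mean abundance of at least 1 TPM (abundance scaled by transcript length and to a fixed total per library) in each genotype, and all 10 were among the 12870 genes tested. RNA from colon IECs of 5 wild type (WT) and 5 RhoB-/- mice, all C57BL/6J and with no treatment named in the labels, was sequenced with 1 library per mouse. RhoB-/- mice are labelled as lacking both copies of Rhob, which encodes a small GTPase. They came from a model organism centre, whereas male WT mice were bought from another supplier, and mice were used at 6 to 8 weeks of age unless stated otherwise. Whether the sequenced mice were littermates, and the sex of the RhoB-/- mice, are not given in the sources used here, so genotype and mouse source cannot be told apart. IECs were released from opened colons with EDTA and dithiothreitol and shaken free, with no sorting step, so crypt base, transit amplifying and surface cells entered the same RNA.

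The colonic epithelium is renewed from stem cells at the crypt base, whose daughters divide in the transit amplifying zone, mature as they move up and are shed at the surface. R-spondins bind Lgr receptors and raise Wnt signalling at the crypt base, and the resulting beta-catenin and TCF activity drives stem cell genes together with feedback inhibitors such as Axin2. EphB receptors in the lower crypt and ephrin-B ligands higher up keep the compartments apart, while BMP signalling is strongest near the surface. Lgr5 is the classic marker of the cycling stem cell, whereas Sox9, Slc12a2, Cdca7, Ephb2 and Ephb3 are also transcribed in progenitors above it.

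Since the genes were compared as a group, promoter windows were read for those that the RefSeq promoter table (GRCm38.p6) lists. Windows run from 250 bases before to 50 bases after a transcription start. The table held 8 windows for 6 of the 10 genes (Cdca7, Ephb2, Ascl2, Axin2, Ephb3 and Rgmb, the last with 3 starts whose windows overlap in part), and did not match Lgr5, Smoc2, Slc12a2 or Sox9. Shown here, 5′ to 3′ on the strand of the gene, are both EphB receptors and Rgmb, which were lower in RhoB-/- mice, beside Ascl2, which was not. Capitals mark the E-box CAGCTG and the GC box GGGCGG, searched on both strands. Of the 3 Rgmb windows, that with 2 GC boxes is shown, and the others hold 0 and 4.
Ephb2 (chr4:136835963-136836262, minus strand): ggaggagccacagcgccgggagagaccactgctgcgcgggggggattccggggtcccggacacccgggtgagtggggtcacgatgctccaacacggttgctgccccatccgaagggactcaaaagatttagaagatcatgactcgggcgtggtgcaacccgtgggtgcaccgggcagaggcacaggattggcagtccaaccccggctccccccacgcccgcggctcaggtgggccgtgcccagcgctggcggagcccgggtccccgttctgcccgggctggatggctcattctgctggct
Ephb3 (chr16:21204545-21204844, plus strand): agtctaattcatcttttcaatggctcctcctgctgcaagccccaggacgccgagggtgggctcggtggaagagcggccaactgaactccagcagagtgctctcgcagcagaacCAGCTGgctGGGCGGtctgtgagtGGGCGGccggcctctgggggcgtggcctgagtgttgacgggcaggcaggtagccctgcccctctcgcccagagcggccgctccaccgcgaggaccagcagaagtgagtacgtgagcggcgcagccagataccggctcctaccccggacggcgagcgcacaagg
Rgmb (chr17:15831016-15831315, minus strand): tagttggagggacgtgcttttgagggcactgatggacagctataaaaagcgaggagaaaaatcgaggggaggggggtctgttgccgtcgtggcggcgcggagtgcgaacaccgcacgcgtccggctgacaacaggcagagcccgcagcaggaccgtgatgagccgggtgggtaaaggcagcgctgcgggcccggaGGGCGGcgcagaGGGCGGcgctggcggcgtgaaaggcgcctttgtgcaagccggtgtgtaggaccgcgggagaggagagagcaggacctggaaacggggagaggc
Ascl2 (chr7:142969215-142969514, minus strand): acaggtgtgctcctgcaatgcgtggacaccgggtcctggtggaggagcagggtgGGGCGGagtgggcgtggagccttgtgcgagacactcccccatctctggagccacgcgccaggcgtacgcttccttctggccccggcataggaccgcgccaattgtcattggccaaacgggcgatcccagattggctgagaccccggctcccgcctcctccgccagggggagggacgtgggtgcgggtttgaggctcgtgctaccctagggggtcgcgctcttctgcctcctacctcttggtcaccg
The E-box, the kind of site that Ascl2 and related factors bind, was found in 1 of the 8 windows, that of Ephb3, against 16.3% of all 32851 windows in the table. The GC box was found in 6 of the 8 windows, against 35.7% of all windows. These windows are also rich in G and C, at 54% (1 Rgmb window) to 70% (Axin2), against a median of 52.7% over all windows. The TCF/LEF core CTTTGA was in 0 of the 8 windows and 16% of all, and the SOX core AACAAT in 0 of the 8 windows and 10.7% of all. Such a match is a description of letters, and these windows hold only the stretch around each start.

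TPM is relative to each library and keeps no depth, so the counting error of each value is unknown, and errors are SD between mice. Rhob ranged from 170.52 to 388.71 TPM in WT libraries and stood at 0.09, 0.10, 0.35 and 0.57 TPM in RhoB-/- replicates 1 to 4, whereas the RhoB-/- replicate 5 library held 110.87 TPM. Counts of calls among the stem cell genes and in each gene list are given with and without this library. The mitochondrially encoded share of TPM was 17.5 to 26.5% for WT and 10.3 to 22.4% in RhoB-/- libraries, with the lowest share in RhoB-/- replicate 3. All 15 epithelial genes passed the filter and 14 had a positive log2 fold change, with 3 called higher, 0 lower and a median of 0.29 (1 higher without RhoB-/- replicate 5). Among those called, Vil1 (log2 fold change 0.65), is also among the colonocyte markers, so centring on this list, used as an alternative, is not centring on a set at equal level. Their summed TPM was 13981 to 16801 in WT and 14107 to 21477 in RhoB-/- libraries. Of 16 leukocyte markers, 6 of the 7 tested were higher in RhoB-/- mice and 0 lower, and the summed TPM was 7.70 to 13.1 in WT and 23.5 to 47.3 in RhoB-/- libraries. Without RhoB-/- replicate 5 the count was also 6, and the RhoB-/- sums reached 37.2. Of 16 fibroblast markers, 3 of the 7 tested were higher and 0 lower, with sums of 13.6 to 16.3 and 20.1 to 78.1 TPM, the highest in RhoB-/- replicate 5, and Foxl1 was listed at 0 in all libraries. Without that library 2 fibroblast markers were higher and the sums reached 38.9 TPM. Smooth muscle markers, of which 2 of 6 were tested and 0 called in either direction, summed to 1.41 to 6.46 TPM in WT and 1.69 to 3.89 TPM in RhoB-/- libraries. With or without that library, none of the 6 endothelial or 4 glial markers reached the filter, with sums of at most 2.95 and 0.97 TPM. The part of these shifts in the results on stem cell genes was not tested.

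To examine whether loss of RhoB went with a change in stem cell genes, their levels were compared between genotypes. Transcripts of 6 of the 10 genes were lower in RhoB-/- IECs (Sox9, Smoc2, Rgmb, Slc12a2, Ephb3 and Ephb2), none was higher, and Axin2, Lgr5, Cdca7 and Ascl2 did not pass the test (limma on log2(TPM + 1), adjusted p below 0.05 over all tested genes). At an unadjusted p below 0.05 the counts were also 6 lower and 0 higher. Among all tested genes, 13.5% were called lower and 7.73% higher in RhoB-/- mice, so that 36.5% of calls were higher. That share was 55.0% after median recentring, 24.0% without mitochondrial genes and 7.72% with libraries centred on epithelial genes, and the stem cell genes called lower numbered 6 to 9 in these settings. The median log2 fold change of the 10 genes was -0.50, against -0.13 for all tested genes, and 9 of the 10 lay below that value. The 10 genes and the gene lists were chosen with earlier results of these data known. Setting their counts and medians beside all tested genes is therefore a description and not a test of the set. For Sox9, Smoc2 and Rgmb, every WT library lay above every RhoB-/- library, as it did for 8.55% of all tested genes. Leaving out RhoB-/- replicate 5, 4 genes were lower, since Slc12a2 (adjusted p = 0.0533) and Ephb3 (adjusted p = 0.0652) no longer passed limma's test, and leaving out WT replicate 4 left 3, those whose groups do not overlap. The count was 4 without WT replicate 2 or RhoB-/- replicate 1, 5 without WT replicate 5 or RhoB-/- replicate 2 or 4, and 7, with Axin2, without WT replicate 3. In RNA of whole epithelium, fewer cells of a type and less RNA of a gene per cell cannot be told apart.

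**Figure D1:**
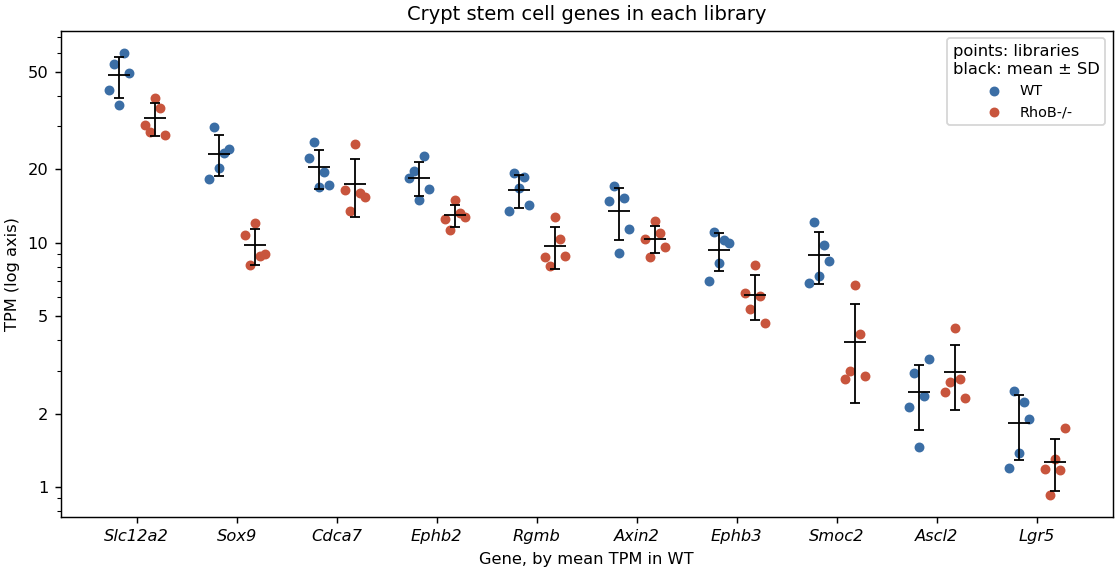
TPM of each crypt stem cell gene in each library (points, log axis), ordered by mean TPM in WT mice, with the mean ± SD of 5 libraries per genotype in black. The RhoB-/- points of Sox9, Smoc2 and Rgmb all lie below the WT points, whereas those of every other gene shown overlap with WT.

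**Figure D2:**
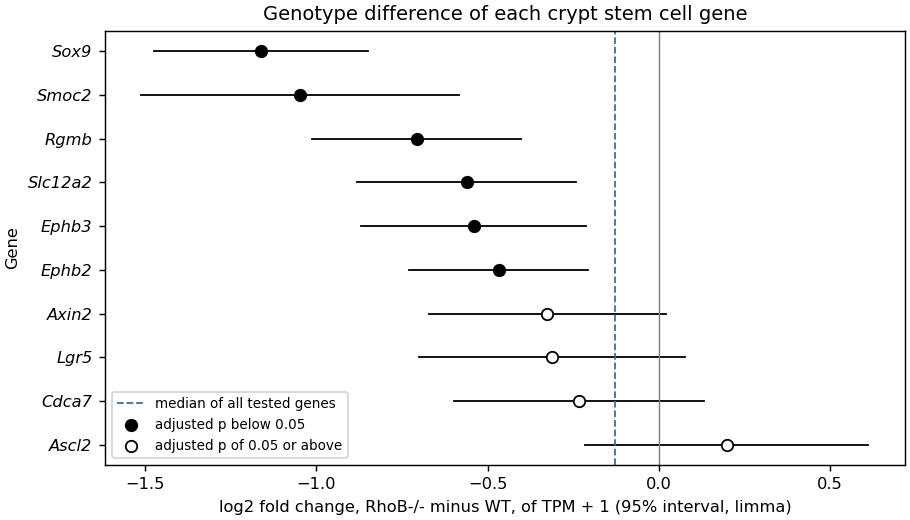
Log2 fold change of TPM + 1, RhoB-/- minus WT, for each gene with its 95% interval from limma (filled, adjusted p below 0.05; open, not). The values run from -1.16 for Sox9 to 0.20 for Ascl2, and the dashed line marks the median of all tested genes at -0.13.

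Lgr5, the R-spondin receptor that marks cycling stem cells (chr10:115450311-115587780, minus strand, GRCm38), was the least abundant of the 10 genes in both genotypes. Lgr5 TPM was 1.20, 2.47, 1.38, 2.23 and 1.89 in WT replicates 1 to 5 and 1.18, 0.93, 1.30, 1.17 and 1.75 in RhoB-/- replicates 1 to 5. Of the RhoB-/- libraries 3 lay below all WT libraries, but replicates 3 and 5 lay within the WT range. The means of 1.83 ± 0.541 and 1.27 ± 0.302 TPM (SD, n = 5 each) did not pass the test (log2 fold change -0.31, 95% interval -0.70 to 0.08, limma adjusted p = 0.227). The fold change on the log2(TPM + 1) scale understates a change at this level, and the interval holds both no change and a loss as large as that of Ephb2 or Ephb3.

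Axin2, a scaffold of the beta-catenin destruction complex that is itself induced by Wnt (chr11:108920349-108950783, plus strand), gave a like result at a higher level. Axin2 TPM was 14.85, 17.07, 9.06, 15.25 and 11.43 in WT libraries and 10.41, 8.75, 12.28, 10.98 and 9.64 in RhoB-/- libraries. The low value of WT replicate 3 lay inside the RhoB-/- range, and 3 WT libraries lay above all RhoB-/- libraries. The difference between 13.5 ± 3.23 and 10.4 ± 1.34 TPM did not pass (log2 fold change -0.33, 95% interval -0.67 to 0.02, limma adjusted p = 0.159). Without WT replicate 3 it did (-0.45, limma adjusted p = 0.0402).

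Sox9 and Ascl2, both transcription factors of the crypt base, lay at opposite ends of the set. Sox9, an HMG-box factor of stem and progenitor cells needed for Paneth cells in the small intestine (chr11:112782224-112787760, plus strand, 3 exons), fell the most of the 10. Its TPM was 18.21, 29.83, 20.27, 23.46 and 24.24 in WT libraries and 10.82, 8.13, 12.05, 8.85 and 8.98 in RhoB-/- libraries, with a gap between the groups. The mean decreased from 23.2 ± 4.43 to 9.77 ± 1.62 TPM, 57.9% lower (log2 fold change -1.16, SE 0.14, limma adjusted p = 2.49e-04). Ascl2, a basic helix-loop-helix factor that sustains Lgr5+ stem cells (chr7:142966829-142969264, minus strand), had TPM of 2.13, 2.92, 1.46, 2.35 and 3.35 in WT and 2.45, 2.70, 4.49, 2.77 and 2.32 in RhoB-/- libraries. The groups overlapped, with RhoB-/- replicate 3 highest of all 10 libraries. The means of 2.44 ± 0.729 and 2.95 ± 0.882 TPM gave a log2 fold change of 0.20 (95% interval -0.21 to 0.61, limma adjusted p = 0.469), and the sign turned to -0.11 when libraries were centred on the epithelial genes.

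Smoc2 and Rgmb, which encode a secreted and a surface protein, both fell in TPM with no overlap between genotypes. Smoc2 encodes a matricellular protein used as a stem cell marker (chr17:14279506-14404790, plus strand). Smoc2 TPM was 6.85, 12.15, 7.33, 9.82 and 8.44 in WT and 2.76, 2.98, 6.75, 4.22 and 2.85 in RhoB-/- libraries. RhoB-/- replicate 3 lay just under the lowest WT library and the other 4 well under it. The mean fell from 8.92 ± 2.14 to 3.91 ± 1.69 TPM, 56.1% lower (log2 fold change -1.05, SE 0.21, limma adjusted p = 0.00604). Rgmb encodes a GPI-anchored BMP co-receptor that also binds neogenin (chr17:15803188-15831039, minus strand). Rgmb TPM was 13.53, 19.28, 16.73, 18.70 and 14.26 in WT and 8.78, 8.01, 12.82, 10.33 and 8.80 in RhoB-/- libraries. Again RhoB-/- replicate 3 came closest to WT. The mean was 40.9% lower, at 16.5 ± 2.57 against 9.75 ± 1.91 TPM (log2 fold change -0.71, SE 0.14, limma adjusted p = 0.00529).

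Ephb2 and Ephb3, which encode the receptor tyrosine kinases that position lower crypt cells, both fell in TPM. Ephb2 TPM (chr4:136647539-136835988, minus strand) was 18.48, 19.70, 14.93, 22.66 and 16.58 in WT and 12.57, 11.35, 15.04, 13.28 and 12.76 in RhoB-/- libraries. The ranges touched only through RhoB-/- replicate 3 and WT replicate 3. The mean fell from 18.5 ± 2.97 to 13.0 ± 1.34 TPM, 29.6% lower (log2 fold change -0.47, SE 0.12, limma adjusted p = 0.0186). Ephb3 TPM (chr16:21204755-21223305, plus strand) was 6.96, 11.09, 8.29, 10.27 and 9.96 in WT and 6.25, 5.36, 8.11, 6.06 and 4.71 in RhoB-/- libraries. Here RhoB-/- replicate 3 was above WT replicate 1, and the other 4 RhoB-/- libraries lay below all WT libraries. The mean fell from 9.31 ± 1.66 to 6.10 ± 1.28 TPM, 34.5% lower (log2 fold change -0.54, SE 0.15, limma adjusted p = 0.0261). The Ephb2 call was lost without WT replicate 4 (adjusted p = 0.0503, limma). The Ephb3 call held in only 3 of 10 fits that left out a library, those without WT replicates 1 or 3 or RhoB-/- replicate 3, and the limma adjusted p was 0.0542 to 0.0732 in the other 7.

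Slc12a2, the basolateral sodium, potassium and chloride cotransporter NKCC1 that loads chloride for crypt secretion, was the most abundant of the 10 genes. Slc12a2 TPM was 42.23, 54.16, 36.78, 59.84 and 49.75 in WT and 30.56, 28.60, 39.38, 35.71 and 27.70 in RhoB-/- libraries. All RhoB-/- libraries except replicate 3 lay below all WT libraries. The mean fell from 48.6 ± 9.20 to 32.4 ± 4.99 TPM, 33.3% lower (log2 fold change -0.56, SE 0.15, limma adjusted p = 0.0204). The call was lost without WT replicate 2 or 4 or RhoB-/- replicate 1 or 5, with limma adjusted p of 0.0516 to 0.0588.

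Cdca7, a nuclear zinc finger protein tied to DNA replication and methylation (chr2:72476159-72486893, plus strand), overlapped between genotypes. Cdca7 TPM was 22.24, 25.83, 16.92, 19.59 and 17.34 in WT and 16.45, 13.54, 25.50, 15.99 and 15.47 in RhoB-/- libraries. RhoB-/- replicate 3 stood near the highest WT library, while the other 4 lay below all WT libraries. The means of 20.4 ± 3.71 and 17.4 ± 4.67 TPM did not pass the test (log2 fold change -0.23, 95% interval -0.60 to 0.13, limma adjusted p = 0.335).

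Levels were next ranked, since TPM is scaled by transcript length and can be compared between genes. By mean TPM in WT mice the order was Slc12a2, Sox9, Cdca7, Ephb2, Rgmb, Axin2, Ephb3, Smoc2, Ascl2 and Lgr5. The ranges of neighbours in this order were separate only between Slc12a2 and Sox9 and between Smoc2 and Ascl2, and all other neighbours overlapped. In RhoB-/- mice Sox9 stood at position 5, after Slc12a2, Cdca7, Ephb2 and Axin2, and was followed by Rgmb, Ephb3, Smoc2, Ascl2 and Lgr5. Neighbours there had separate ranges only between Slc12a2 and Cdca7 and between Ascl2 and Lgr5. Mean Ascl2 was 2.44 against 1.83 TPM for Lgr5 in WT mice and 2.95 against 1.27 TPM in RhoB-/- mice, with Ascl2 above Lgr5 in all 10 libraries.

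The members were also compared across single libraries. RhoB-/- replicate 3 had the highest TPM of its genotype for 9 of the 10 genes, all but Lgr5, which was highest in RhoB-/- replicate 5. WT replicate 2 was highest of its genotype for 7 genes and WT replicate 4 for 2, whereas WT replicates 1 and 3 were lowest for 5 genes each. Averaged over the 10 genes, the deviation of log2(TPM + 1) from the mean of all libraries was 0.10, 0.53, 0.00, 0.41 and 0.25 in WT replicates 1 to 5 and -0.32, -0.46, 0.10, -0.24 and -0.38 in RhoB-/- replicates 1 to 5. RhoB-/- replicate 3 thus lay above WT replicate 3 and next to WT replicate 1. Without RhoB-/- replicate 3 the number of genes called lower was also 6. Within genotypes, all 45 pairs of the 10 genes had a positive Pearson r across the 10 libraries, from 0.28 (Lgr5 and Cdca7) to 0.90 (Smoc2 and Rgmb), with a median of 0.66. These values are a description, since the genes share each library's RNA and scaling.

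**Figure D3:**
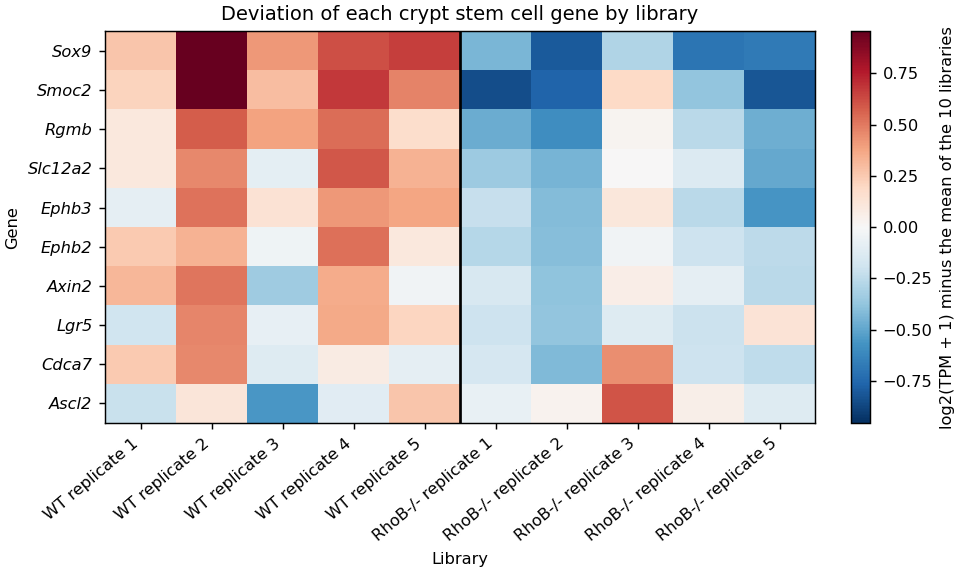
Deviation of log2(TPM + 1) from the mean of the 10 libraries for each gene (rows) in each library (columns), red above and blue below. RhoB-/- replicate 3 is the palest or reddest RhoB-/- column, with mean deviation 0.10 against -0.46 to -0.24 in the other 4.

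To set these genes beside dividing and mature cells, proliferation and colonocyte markers were taken from the same fit. Of 30 proliferation markers, all of which were tested, 13 fell and 0 rose in RhoB-/- mice, with a median log2 fold change of -0.56. Uhrf1, which maintains DNA methylation at replication, fell from 19.3 ± 3.19 to 10.1 ± 3.42 TPM (log2 fold change -0.91, limma adjusted p = 0.00819). Mcm3, a subunit of the replicative helicase, fell from 23.2 ± 1.94 to 13.3 ± 5.10 TPM (log2 fold change -0.83, limma adjusted p = 0.0163). Stmn1, a microtubule regulator, fell from 114 ± 7.66 to 75.6 ± 34.5 TPM (log2 fold change -0.68, limma adjusted p = 0.0484), and Pcna, the polymerase clamp, did not pass, with 100.6 ± 13.1 and 82.3 ± 22.2 TPM (limma adjusted p = 0.200). The count rested on single libraries, being 28 without RhoB-/- replicate 3, 1 without WT replicate 4, 11 without WT replicate 3 and 2 to 6 without each of the others. Mean deviations of these markers were 0.35, 0.35, 0.12, 0.57 and 0.04 in WT and -0.36, -0.80, 0.45, -0.19 and -0.52 in RhoB-/- libraries, so RhoB-/- replicate 3 was second only to WT replicate 4.

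Differentiated colonocyte markers lay on the other side of 0, with 18 of 25 higher and 0 lower (at an unadjusted p, Slc20a1 was lower, with limma adjusted p = 0.106), and a median log2 fold change of 0.91. Without RhoB-/- replicate 5, 17 were higher and 0 lower, and centred on epithelial genes 3 were lower. Slc9a3, the apical sodium and proton exchanger, rose from 46.3 ± 12.9 to 209.9 ± 55.7 TPM (log2 fold change 2.15, limma adjusted p = 6.51e-05). Saa1, an acute phase protein, rose from 359 ± 153 to 1899 ± 455 TPM (log2 fold change 2.49, limma adjusted p = 2.32e-04). Lypd8, which keeps flagellated bacteria from the mucosa, rose from 5179 ± 1315 to 15941 ± 2804 TPM (log2 fold change 1.65, limma adjusted p = 2.14e-04). Car1, the abundant colonic carbonic anhydrase, had 12756 ± 2243 and 17151 ± 5027 TPM and did not pass (limma adjusted p = 0.203). Mean deviations of the colonocyte markers were -0.77 to -0.20 in WT and 0.24 to 0.83 in RhoB-/- libraries, and RhoB-/- replicate 3, at 0.41, was in the middle of its group. Summed colonocyte TPM was 23439 to 34700 in WT and 44258 to 72879 in RhoB-/- libraries, of a total that is fixed per library. The part of this rise in the lower stem cell genes was not tested.

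**Figure D4:**
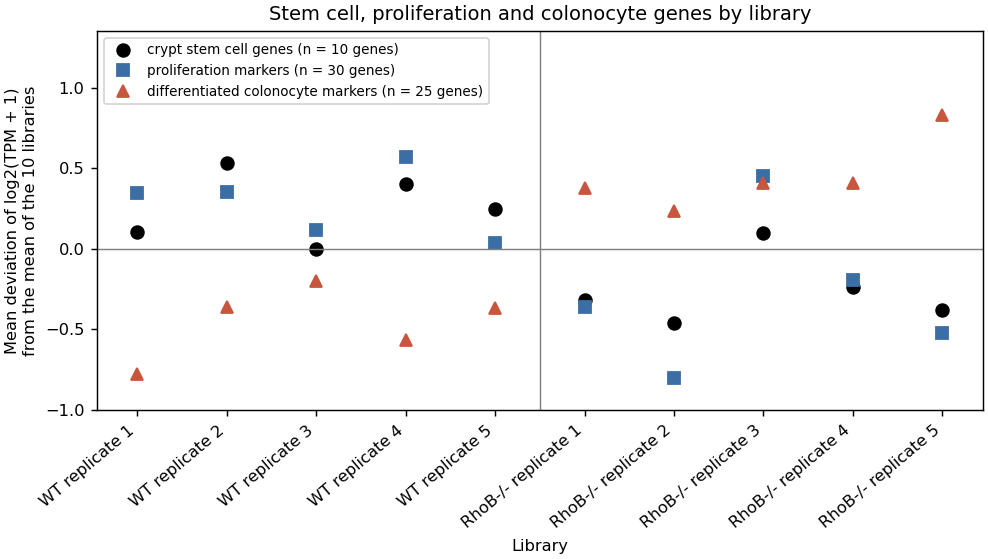
Mean deviation of log2(TPM + 1) from the mean of the 10 libraries, in each library, for the 10 crypt stem cell genes (circles), 30 proliferation markers (squares) and 25 colonocyte markers (triangles). Colonocyte markers are negative in all WT and positive in all RhoB-/- libraries, and in RhoB-/- replicate 3 the proliferation markers stand at 0.45 and the stem cell genes at 0.10.

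Whether single genes moved more than the proliferation markers was then tested, by the difference of each gene from their mean log2(TPM + 1) in the same library. None of 10 differences passed after adjustment over the 10 tests (2-sided exact permutation test, smallest possible p of 0.00794, which adjusts to 0.0794 where 1 gene alone reaches it), so the design left little room for a gene to pass, and 4 had an unadjusted p below 0.05. Smoc2 (-0.48, exact p = 0.0159) and Sox9 (-0.59, exact p = 0.0238) lay lower in RhoB-/- mice relative to the markers. Ascl2 (0.77, exact p = 0.0159) and Cdca7 (0.34, exact p = 0.0317) lay higher relative to them, and the adjusted p was 0.0794 for each of these 4 in the exact test. For Slc12a2 (0.01) and Ephb3 (0.03) the difference was close to 0. Each gene was also set against Lgr5, a comparison chosen after the values were seen. At the low level of Lgr5, log2(TPM + 1) understates a change, so the differences from it depend on the pseudocount. With a pseudocount of 0.1 the log2 fold change was -0.48 for Lgr5, -1.23 for Sox9, -1.22 for Smoc2, -0.76 for Rgmb and 0.27 for Ascl2. Relative to Lgr5, Sox9 gave -0.85 (exact p = 0.00794, the smallest the design allows, adjusted over 9 tests 0.0714), Smoc2 gave -0.74 (exact p = 0.0238), Rgmb -0.40 (exact p = 0.0317) and Ascl2 0.51 (exact p = 0.0397), and none of the 9 passed after adjustment. Without RhoB-/- replicate 5, again with 0.00794 as the smallest exact p, Sox9 gave -0.76 (exact p = 0.00794), Smoc2 -0.59 (exact p = 0.0238), Ascl2 0.64 (exact p = 0.0159) and Rgmb -0.30 (exact p = 0.0556).

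The R-spondin receptor and Wnt feedback genes around Lgr5 and Axin2 included 26 genes, of which 12 reached the filter, 3 fell and 0 rose, with a median log2 fold change of -0.24. Lgr4, the R-spondin receptor expressed through the crypt, fell from 40.9 ± 9.34 to 25.5 ± 1.75 TPM (log2 fold change -0.64, limma adjusted p = 0.00814). Fzd7, a Wnt receptor of stem cells, fell from 5.17 ± 1.19 to 2.01 ± 0.431 TPM (log2 fold change -1.03, limma adjusted p = 0.00117). The third was the Wnt co-receptor Lrp5, from 22.6 ± 2.83 to 15.7 ± 1.33 TPM (log2 fold change -0.49, limma adjusted p = 0.00869). In these 3 genes every WT library lay above every RhoB-/- library, as in 8.55% of all tested genes. The same held for Znrf3 of this list, which did not pass, at 1.84 ± 0.472 and 1.01 ± 0.147 TPM (log2 fold change -0.49, limma adjusted p = 0.0545). Among all tested genes 13.5% were called lower. Ccnd2, a D-type cyclin, had 36.0 ± 9.57 and 32.6 ± 5.28 TPM (log2 fold change -0.11, limma adjusted p = 0.693). The count of lower genes was also 3 without RhoB-/- replicate 5, 5 without mitochondrial genes and 7 centred on epithelial genes, and 1 gene was higher after median recentring. The ligands Rspo2, Rspo3 and Rspo4, made by stroma, were listed at 0 in all libraries. Rspo1, also below the filter, averaged 0.19 TPM in WT and 0.95 TPM in RhoB-/- libraries, with at most 0.43 and 2.14 TPM.

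Among 28 other genes of the crypt base and progenitors, 20 were tested, 9 fell and 1 rose, with a median log2 fold change of -0.64. The counts were 7 and 1 without RhoB-/- replicate 5, and 16 were lower when libraries were centred on epithelial genes. Sox4, an HMG-box factor of progenitors, fell from 10.2 ± 1.63 to 4.39 ± 0.518 TPM (log2 fold change -1.04, limma adjusted p = 1.73e-04). Rnf32, a RING finger gene, fell from 9.47 ± 3.33 to 3.65 ± 1.15 TPM (log2 fold change -1.15, limma adjusted p = 0.00494). Car2, a cytosolic carbonic anhydrase, fell from 956 ± 172 to 580.1 ± 50.6 TPM (log2 fold change -0.71, limma adjusted p = 0.00452). Aqp4, a water channel, had 143 ± 31.4 and 97.0 ± 38.5 TPM (log2 fold change -0.62, limma adjusted p = 0.104). The gene that rose was Prom1, which encodes the membrane protein CD133, from 119 ± 17.5 to 211 ± 57.9 TPM (log2 fold change 0.79, limma adjusted p = 0.00998). Olfm4, a stem cell marker of the small intestine that mouse colon largely lacks, was at most 0.22 TPM in any library.

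The other Eph receptors and ephrins moved in both directions. Of 15 genes 10 were tested, 3 fell and 2 rose, with a median log2 fold change of -0.26. Among all tested genes 13.5% were called lower and 7.73% higher. The main ephrin-B ligand by level, Efnb1, had 56.0 ± 7.54 and 64.5 ± 9.06 TPM (log2 fold change 0.20, limma adjusted p = 0.274). Efna1, an ephrin-A ligand, had 87.1 ± 29.5 and 60.8 ± 12.9 TPM (log2 fold change -0.47, limma adjusted p = 0.163). The receptor Epha4 fell from 2.61 ± 0.420 to 1.22 ± 0.293 TPM (log2 fold change -0.70, limma adjusted p = 0.00800) and Epha2 rose from 20.8 ± 6.92 to 40.3 ± 13.3 TPM (log2 fold change 0.91, limma adjusted p = 0.0319). Ephb4 (log2 fold change -0.70) and the ligand Efna4 (-0.69) also fell and Epha1 (0.43) rose. The count of those that rose was 0 without WT replicate 4 and 1 without WT replicate 1 or 2 or RhoB-/- replicate 1, 4 or 5. Lower genes numbered 3 without RhoB-/- replicate 5, 5 centred on epithelial genes and 1 at a mean TPM of at least 5, and higher genes 1 with no filter or centred on epithelial genes.

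Rgmb acts in BMP signalling, of which 26 genes were listed, 15 tested, 2 lower and 0 higher, with a median log2 fold change of -0.02. The share called lower was near that of all tested genes, 13.5%, of which 7.73% were called higher. Smad6, an inhibitory Smad, fell from 11.5 ± 1.04 to 7.82 ± 0.727 TPM (log2 fold change -0.50, limma adjusted p = 0.00501). Id2, a BMP target, fell from 25.8 ± 3.68 to 18.7 ± 2.86 TPM (log2 fold change -0.45, limma adjusted p = 0.0318). The targets Id1, at 385 ± 95.1 and 433 ± 107 TPM, and Id3, at 145 ± 33.4 and 138 ± 33.0 TPM, had log2 fold changes of 0.17 and -0.07 (limma adjusted p = 0.565 and 0.807). The count of lower genes was 1 without WT replicate 4 or 5 or RhoB-/- replicate 1, 2 or 5, and 3 without WT replicate 1, and 6 centred on epithelial genes. After median recentring 1 gene was lower and 2 were higher, and after quantile normalization 2 were higher.

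**Figure D5:**
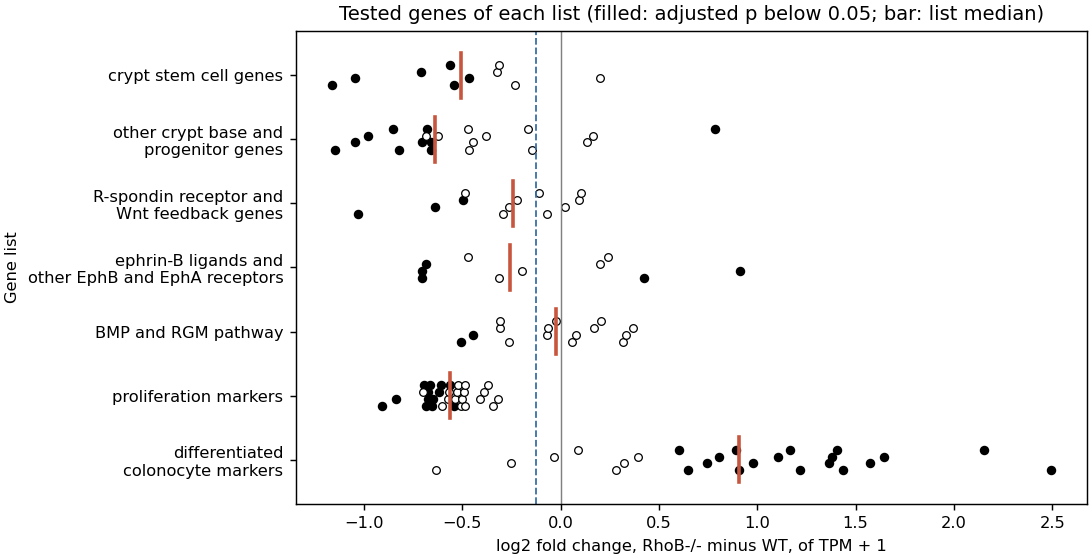
Log2 fold change of TPM + 1, RhoB-/- minus WT, of each tested gene by list (filled, limma adjusted p below 0.05; open, not), with a bar at each list's median and a dashed line at the median of all tested genes, -0.13. Stem cell, other crypt base and proliferation genes have medians of -0.50, -0.64 and -0.56, and colonocyte markers 0.91. The lists were chosen with earlier results of these data known.

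The genes whose deviations from their genotype means were most like the mean of the 10 stem cell genes were sought among all other tested genes. They were Bop1 (Pearson r = 0.98, Spearman rank correlation 0.98), Cnot10 (0.98 and 0.98), Isyna1 (0.97 and 0.98), Map3k20 (0.97 and 0.99) and Cops7b (0.97 and 0.95), over 10 libraries. Without the 2 libraries farthest from the median, r was 0.92 to 0.96. None of the 5 passed limma's test between genotypes, with log2 fold changes of -0.59 for Isyna1 (adjusted p = 0.0549) to -0.02 for Cops7b (adjusted p = 0.920).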

How the data were processed

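The gene table of TPM values that the authors deposited, rounded to 2 decimals, was analysed for 10 libraries of colon IECs, 5 per genotype. Labels gave the genotype and number of each library. Per the study's methods, reads were trimmed with SeqPrep and Sickle, aligned with HISAT2, assembled with StringTie and quantified with RSEM. The labels' processing notes name GRCm38.p6, and tool versions are not given in the sources used here. The table gives no read numbers, so depth per sample is unknown and no counting interval is given.

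Genes averaging 1 TPM or more were fitted as log2(TPM + 1) with limma 3.58.1 (R 4.3.3; lmFit, eBayes with an intensity trend), both genotypes together, and p-values were adjusted by Benjamini-Hochberg over all 12870 genes. The procedure was tested on simulated data. Single values were compared by 2-sided exact permutation over all 252 assignments of 5 libraries to each group, with code checked against scipy 1.17.1. Without RhoB-/- replicate 5 there were 126 assignments. Gene positions are from GENCODE M21 (GRCm38) and promoter sequences from RefSeq. The members and the gene lists were chosen with earlier results of these data known. Named were all 10 members, Rhob, the 2 most abundant genes in WT mice and the 2 largest called changes of each list, and the 5 genes most like the members. Lrp5, Znrf3, Rspo1, Prom1, Olfm4, Slc20a1, Agr2, Kit, Ephb4, Efna4, Epha1 and the genes listed at 0 were named after their values were seen. Alternatives were a pseudocount of 0.1, no filter, a mean TPM of at least 5, a replicate block, median recentring, quantile normalization, TPM without mitochondrial genes, centring on epithelial genes, limma without the trend, an unadjusted p below 0.05 with a fold change above 1.5, and each library left out. Leaving RhoB-/- replicate 5 out of the comparison with Lgr5 was added after seeing the data.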

Additional observations from a re-analysis of the deposited data

Results flagged for a closer look

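In 22 groups of 5 libraries, made of the 10 stem cell genes and Rhob in each genotype, 3 held a library far from the others by Dixon's criterion, where chance gives about 1 in 20, or 1.1 here. Ascl2 stood at 4.49 TPM in RhoB-/- replicate 3, against 2.32 to 2.77 TPM in the other RhoB-/- libraries. Cdca7 stood at 25.5 TPM in the same library, against 13.54 to 16.45 TPM in the other 4. Rhob, the deleted gene, reached 110.87 TPM in the RhoB-/- replicate 5 library, against at most 0.57 TPM in the other 4.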

How the results depend on the processing

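Sox9, Smoc2 and Rgmb were called lower in all 10 fits that left out a library and in all 9 other settings, with log2 fold changes of -1.47 to -1.05 for Sox9, -1.36 to -0.89 for Smoc2 and -1.02 to -0.59 for Rgmb. The count of stem cell genes called lower, 6, ranged from 3 to 7 with a library left out and was 3 at an unadjusted p below 0.05 with a fold change above 1.5. With no filter it was 5, as Ephb3 was lost (adjusted p = 0.0628, limma). Centred on epithelial genes it was 9, with Lgr5 (-0.62), Axin2 (-0.63) and Cdca7 (-0.54) called and Ascl2 reversed to -0.11 (limma adjusted p = 0.656). The median log2 fold change of all tested genes was then -0.44. The count of stem cell genes called higher was 0 in every setting run. A mean TPM of at least 5 left Lgr5 and Ascl2 untested. Of all tested genes 1734 were lower and 995 higher. Lower genes numbered 1104 at a mean TPM of at least 5, 1059 with the replicate block, 3485 without mitochondrial genes, 7254 centred on epithelial genes, 1072 at the unadjusted threshold and 860 to 2929 with a library left out. Higher genes numbered 2010 after recentring, 1587 after quantile normalization, 607 centred on epithelial genes and 716 to 1158 with a library left out. Proliferation markers called lower numbered 3 with no filter, 7 with the block, 8 without the trend and 30 centred on epithelial genes. The cause of these moves was not tested.

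Replicate numbers are shared by both genotypes, but libraries with the same number did not deviate together (r of -0.09 to 0.07 for the 5 numbers). Such a correlation cannot exclude a pairing, and the labels do not say whether the numbers pair the mice. The main fit did not pair them. With the replicate block 4 stem cell genes were lower, without Ephb2 (adjusted p = 0.0563, limma) and Ephb3 (adjusted p = 0.0650, limma), and only replicate 3 correlated best with its own number. Depth is unknown in TPM, which limits most the genes of low level, Lgr5 and Ascl2.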

Other observations

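Other epithelial lineages shifted in both directions. Of 12 enteroendocrine markers 9 were tested, 5 fell and 0 rose, with a median log2 fold change of -0.69. Insl5, a peptide hormone of colonic L cells, fell from 41.9 ± 13.8 to 8.68 ± 4.09 TPM (log2 fold change -2.18, limma adjusted p = 4.84e-04), and Pyy, another L cell hormone, from 197 ± 67.0 to 80.3 ± 20.1 TPM (log2 fold change -1.26, limma adjusted p = 0.00266). Of 14 goblet and deep crypt secretory markers 5 rose and 0 fell, with a median of 0.30. Retnlb, a goblet cell peptide induced by microbes and type 2 cytokines, rose from 132 ± 94.7 to 1868 ± 680.5 TPM (log2 fold change 3.96, limma adjusted p = 2.91e-05), while Muc2, the main gel mucin, had 4981 ± 1239 and 4294 ± 629 TPM (limma adjusted p = 0.474). Of 10 tuft markers 7 were tested, 4 rose and 0 fell, among them Trpm5, a taste channel, from 2.20 ± 1.08 to 4.47 ± 1.45 TPM (log2 fold change 0.78, limma adjusted p = 0.0379). All 7 tuft markers overlapped between genotypes. Their mean deviation was 0.31 in WT replicate 1, against -0.63 to -0.44 in the other WT and 0.11 to 0.56 in RhoB-/- libraries. Of 7 small intestinal Paneth markers only Itln1, an intelectin, was tested, and it rose from 2.88 ± 2.36 to 49.5 ± 10.4 TPM (log2 fold change 3.87, limma adjusted p = 1.45e-05). Without RhoB-/- replicate 5, 4 enteroendocrine markers were lower, 4 goblet, 2 tuft and 1 Paneth markers higher, and Trpm5 no longer passed (adjusted p = 0.0914, limma). For the marker and pathway lists with 0 calls in a direction by limma, the count in that direction at an unadjusted p below 0.05 was also 0, except for 1 colonocyte marker (Slc20a1), 1 fibroblast marker (Pdgfrb) and 2 goblet and deep crypt secretory markers (Agr2 and Kit), all lower.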
